A study of Homo sapiens with 6 samples.

Results

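Solute carriers (SLC) are membrane proteins that move nutrients, ions, vitamins and metabolites across the plasma membrane and the membranes of organelles. The genes described here were chosen by symbol and level: of 369 genes whose symbol follows the SLC pattern (SLC, a family number, a letter and a member number), those with a mean of at least 5 CPM (a gene's counts over the library's total, times 1e6) over the 3 DMSO libraries were taken. The glucose and lactate carriers SLC2A1, SLC2A3, SLC16A1 and SLC16A3 and the cystine carrier SLC7A11 were left out by the rule, and 4 of these 5 genes would otherwise have met it. This gave 152 genes of 43 families, out of 61541 genes in the count table. They were compared in H9 cells, a human T-cell lymphoma line labelled as wild type, between 3 libraries of cells given AZD4573, which inhibits the elongation kinase CDK9, and 3 libraries of cells given its solvent, DMSO. The labels give an exposure of 4 h for AZD4573 and none for DMSO, and a legend of the study gives 50 nM for 4 h, whereas its discussion speaks of a longer exposure. All 6 libraries came from this line, grown in RPMI with serum, and the question was how the transcripts of each transport class differed when CDK9 was inhibited.

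Most carriers work by alternating access, in which the substrate site faces one side of the membrane and then the other. Some pass solutes down their gradient, others couple them to sodium or protons, and many exchange one solute for another. The families differ in substrate: SLC1, SLC7 and SLC38 carry amino acids, SLC19, SLC29 and SLC52 carry vitamins or nucleosides, SLC30 and SLC39 carry zinc and other metals, SLC35 serves the Golgi and endoplasmic reticulum, and SLC25 serves mainly the mitochondrial inner membrane. Proliferating lymphocytes are known for their uptake of amino acids, for which the heterodimer of SLC7A5 with SLC3A2 and the glutamine carrier SLC1A5 are central.

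Total counts ranged from 70367303 to 76571157 with DMSO and from 52101868 to 63795185 with AZD4573. The median member stood at 29.3 CPM with DMSO. Since no source used here names separate cultures, the p-values measure only the spread between these libraries, which may be technical. Of the T-cell markers, CD3D, CD3E, CD3G, TRAC, TRBC1, TRBC2, LCK and CD5 lay between 58.5 and 273 CPM with DMSO, whereas CD2 (0.109 CPM) and CD7 (0.624 CPM) were near 0 and CD4 stood at 3.96 CPM. Among markers of other cells, EPCAM stood at 161 CPM and CD79A at 59.9 CPM with DMSO, whereas MS4A1, CD14, LYZ, CSF1R, KRT5 and KRT14 were near or at 0 in both groups. The mRNAs of the mitochondrial genome went, as a share of each library, from 3.13% ± 0.0929 in DMSO to 4.85% ± 0.162 in AZD4573 (SD, n = 3). Their part in the results was not tested, apart from the scaling given below. In bulk libraries, fewer cells with a transcript and less of it per cell cannot be told apart.

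Upon AZD4573 treatment, falls outnumbered rises among the expressed carriers. A gene was called where edgeR's quasi-likelihood fit of all 17678 tested genes gave a fold change of 1.5 or more together with a Benjamini-Hochberg adjusted p under 0.05. Of the 152 members, 59 were lower and 16 were higher, while 77 were not called. These were 38.8% and 10.5% of the members, where 23.7% of all genes tested were lower and 22.7% were higher. Because members were taken by their DMSO level, the closer background is the 10502 tested genes that reach 5 CPM with DMSO, of which 29.8% were lower and 10.5% higher. The share of members called higher was thus that of the background, and the share called lower lay above it. No test was made of this difference, since the DMSO libraries served both the choice and the comparison. With members taken at a mean of 5 CPM over all 6 libraries, 55 of 148 were lower and 18 higher.

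The members' log2 fold changes ran from -2.83 to 1.53 with a median of -0.33, beside 0.03 over all genes tested and -0.18 over those at 5 CPM or more with DMSO. At a fold of 2, 41 members were lower and 7 higher, and at a fold of 4, 7 were lower and 0 higher. In each of the 75 members called, every AZD4573 library lay beyond every DMSO library. Such separation held for 99 members below and 39 above, or, among all genes at 5 CPM or more with DMSO, for 58.5% below and 28% above. The summed CPM of the members was 8419 ± 24.4 (SD, n = 3) with DMSO and 7364 ± 18.1 with AZD4573, a ratio of 0.875, so that the carriers together took a smaller part of the counts.

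All these values are relative to the other transcripts of a library. With libraries scaled to the 13 mitochondrially encoded mRNAs, the median of all genes moved from 0.03 to -0.71, and 111 members were lower and 2 higher, SLC2A11 and SLC14A1. The members' median stood 0.35 below that of all genes under either scaling, since a change of scale moves all genes by nearly the same amount. Below the median of genes at 5 CPM or more with DMSO it stood by 0.15 under TMM scaling.

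**Figure D1:**
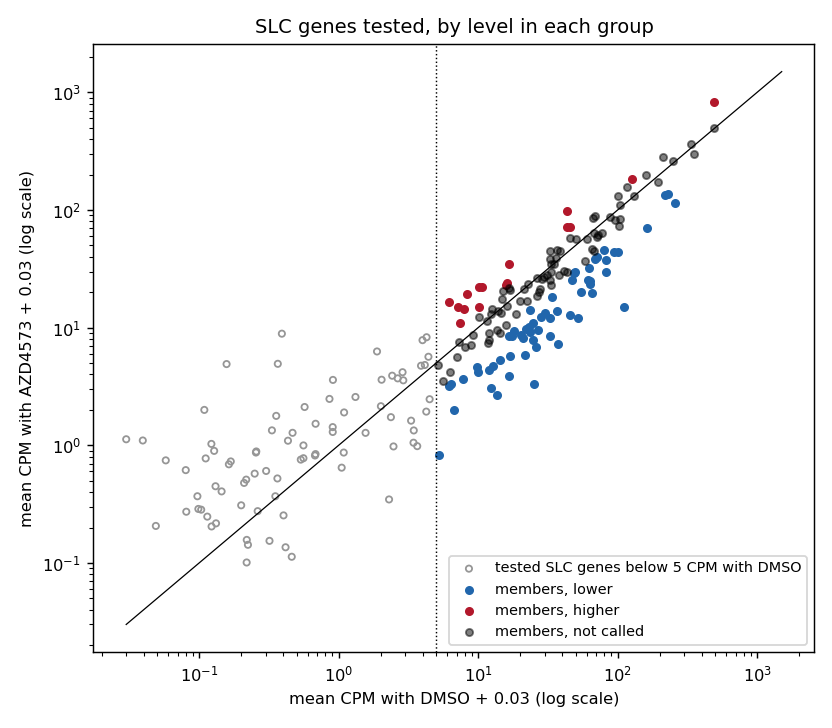
Mean CPM with AZD4573 against mean CPM with DMSO for the tested SLC genes, both on log scales with 0.03 added, with the line of equality and the threshold of 5 CPM (dotted). Members called lower (59) lie from 5.20 CPM (SLC29A3) to 260 CPM (SLC29A1) with DMSO, whereas tested SLC genes below the threshold lie mostly above the line.

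At the threshold, the members with the lowest DMSO means were SLC38A7 at 5.15 CPM and SLC29A3 at 5.20 CPM. Just outside it were SLC16A13 at 4.46 CPM and SLC25A45 at 4.37 CPM. In all, 212 SLC genes stayed below 5 CPM with DMSO, aside from those left out by name, and 81 of them were tested. Of these 81, 10 were lower and 47 higher (12.3% and 58.0%), beside 23.7% and 22.7% of all genes tested. The choice by DMSO level itself favours such a count of rises. No share was taken over all genes below 5 CPM with DMSO, so these counts have no background of like level. Among those that reached 5 CPM upon treatment, SLC23A1, a vitamin C transporter of epithelia, went from 1.85 to 6.25 CPM in the mean. SLC2A13, a proton-coupled inositol carrier, and SLC22A18 stood at 3.96 and 4.24 CPM with DMSO and at 7.80 and 8.26 CPM with AZD4573. SLC25A45 stood at 4.37 and 5.63 CPM (log2 fold change 0.47), short of the fold required.

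The members were sorted into substrate classes by family. The highest share of falls was in the carriers of nucleosides, vitamins and heme, with 9 of 13 lower and 0 higher, and a median log2 fold change of -1.09. Of genes of like DMSO level, 29.8% were lower and 10.5% higher. The share of falls was larger among inorganic ion and pH carriers (9 lower, 2 higher of 19, or 47.4% and 10.5%). It was above the background by few genes among nucleotide sugar and secretory pathway carriers (9 and 2 of 22, or 40.9% and 9.09%) and sugar and carboxylate carriers (5 and 1 of 12, or 41.7% and 8.33%). The same held for amino acid and peptide carriers (7 and 3 of 18, or 38.9% and 16.7%), where RLE factors left 6 lower. It also held for carriers of lipids, choline and organic ions (4 and 2 of 10, or 40% and 20%). The share of falls was at the background among metal ion carriers (6 and 2 of 20, or 30% and 10%) and mitochondrial carriers (10 and 3 of 35, or 28.6% and 8.57%). The class medians were -0.49 for inorganic ions, -0.48 for sugars, -0.38 for amino acids, -0.37 for nucleotide sugars, -0.11 for metal ions, -0.05 for mitochondrial carriers and 0.07 for lipids. That of the lipid class, above the -0.18 of genes at 5 CPM or more with DMSO, turned to -0.04 with library size as the only scaling. These are descriptions, since classes hold few genes and genes are not replicates.

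**Figure D2:**
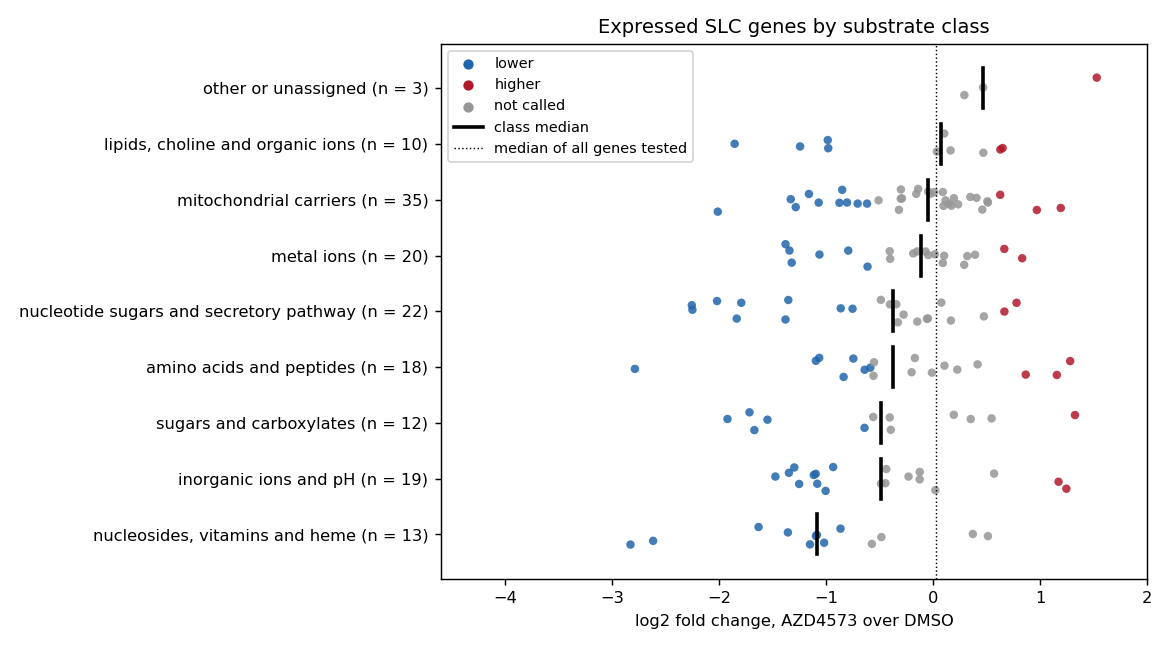
Log2 fold change of each of the 152 members (points, AZD4573 over DMSO), by substrate class in the order of the class medians (bars), with the median of all genes tested (dotted). The nucleoside, vitamin and heme carriers have the lowest median (-1.09) and no member called higher, and each of the other named classes holds members called in both directions.

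The summed CPM of a class weights its members by abundance, and it gave another picture for the amino acid carriers. Their sum was 2109, 2105 and 2083 CPM with DMSO and 2101, 2161 and 2153 CPM with AZD4573, so that the groups overlapped, with a ratio of 1.02, although the class median was -0.38. SLC7A5 alone made up 23.3% of this sum with DMSO. In each other named class every AZD4573 library lay below every DMSO library. These sums are CPM on library totals, whereas the fold changes use TMM. The median log2 fold change of all genes was 0.03 with TMM and -0.08 with library size as the only scaling. Small differences, as in the sums of the amino acid and mitochondrial carriers, can thus turn with the scale. The sums were not computed under TMM. The ratio of the sums was 0.573 for nucleosides, vitamins and heme, 0.679 for sugars, 0.701 for inorganic ions, 0.710 for lipids, 0.763 for nucleotide sugars, 0.828 for metal ions and 0.950 for mitochondrial carriers.

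**Figure D3:**
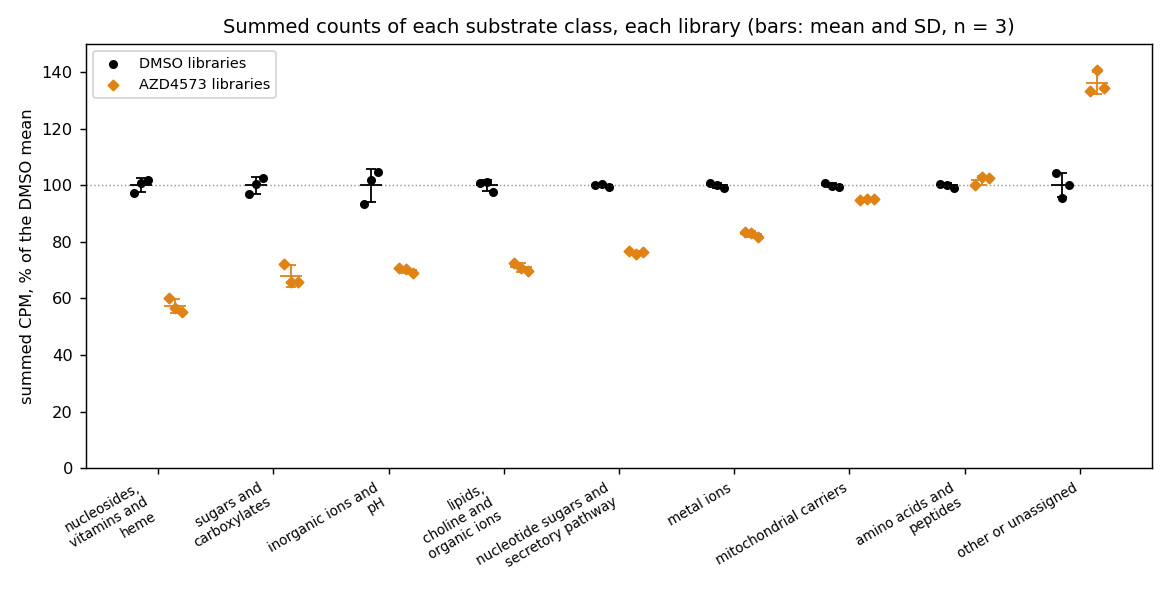
Summed CPM (on library totals, without TMM) of each substrate class in each library, as a percentage of the class's DMSO mean (points, with mean and SD over 3 libraries per group). The classes run from nucleosides, vitamins and heme (ratio 0.573) to the unassigned genes (ratio 1.36), and the amino acid carriers are the class in which the groups overlap.

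The vitamin and nucleoside carriers held the largest fall of all members. SLC19A2 (ENSG00000117479), the high-affinity thiamine transporter, lies on chromosome 1 of GRCh38 from 169463909 to 169485944 on the minus strand. Its libraries held 23.5, 26.6 and 24.8 CPM with DMSO and 4.18, 2.78 and 2.93 CPM with AZD4573, a log2 fold change of -2.83 ± 0.117 (SE; adjusted p = 1.9e-10). SLC19A1, the reduced folate carrier of the same family, went from 82.1 ± 1.18 to 37.7 ± 3.17 CPM (SD, n = 3; log2 fold change -1.02).

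Equilibrative nucleoside transporters (SLC29) carry nucleosides down their gradient, and 4 of 4 members fell, with a family median of -1.22. SLC29A1, which lies on chromosome 6 from 44219553 to 44234142, is the main one at the plasma membrane and had the highest level per length in the class, at 60.4 CPM per kb of exon with DMSO. It held 249, 262 and 268 CPM with DMSO and 123, 110 and 109 CPM with AZD4573, a log2 fold change of -1.09 ± 0.0480 (SE; adjusted p = 3.4e-10). SLC29A2 went from 32.9 to 11.9 CPM in the mean. The lysosomal SLC29A3 held 5.11, 4.95 and 5.54 CPM with DMSO and 0.979, 0.824 and 0.580 CPM with AZD4573, a log2 fold change of -2.62 ± 0.170 (SE), the widest error among the members. SLC29A4, which also carries monoamines, went from 6.15 to 3.14 CPM.

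Further falls in this class were in SLC5A6, which brings biotin and pantothenate into the cell, from 101 to 44 CPM (log2 fold change -1.10), and in the riboflavin transporter SLC52A2, from 65.0 to 19.6 CPM. Exons of other genes on the opposite strand cover 50.0% of the exon bases of SLC52A2, and reads were counted without strand, so its value is uncertain. SLC46A3, a lysosomal carrier, fell from 10.0 to 4.21 CPM. The class members that did not fall included SLC23A2, the vitamin C transporter, with 110, 121 and 121 CPM with DMSO and 156, 159 and 152 CPM with AZD4573. Its log2 fold change of 0.51 had an adjusted p of 1.9e-07 but missed the fold required. The heme exporter of lysosomes SLC48A1 stood at 10.2 and 12.2 CPM.

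**Figure D4:**
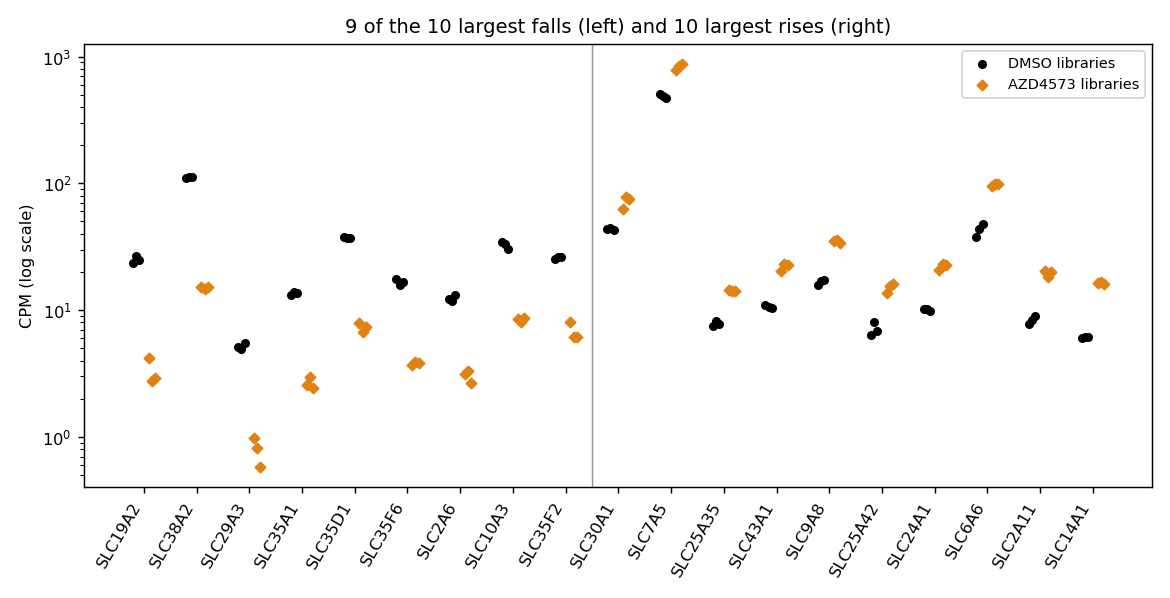
CPM of each library (log scale) for 9 of the 10 largest falls, left of the line, and the 10 largest rises, right of it, among members with an adjusted p under 0.05. In each gene the 3 DMSO libraries (circles) and the 3 AZD4573 libraries (diamonds) do not overlap, with SLC7A5 the most abundant and SLC29A3 the least.

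Amino acid carriers moved in opposite directions. SLC38A2 (SNAT2), a sodium-coupled carrier of small neutral amino acids that is known as a gene induced by amino acid shortage, lies on chromosome 12 from 46358188 to 46372773 on the minus strand. It held 111 CPM in each DMSO library and 15.3, 14.6 and 15.1 CPM with AZD4573, a log2 fold change of -2.79 ± 0.0488 (SE; adjusted p = 4.9e-13). Its neighbour in sequence and on the chromosome, SLC38A1 (SNAT1), held 339, 337 and 334 CPM with DMSO and 369, 374 and 356 CPM with AZD4573, a log2 fold change of 0.22. The other members of the family were not called either, so that SLC38A2 was 1 of 6. SLC38A5 stood at 71.0 and 58.6 CPM, SLC38A10 at 131 in both groups, SLC38A7 at 5.15 and 4.76, and the lysosomal arginine sensor SLC38A9 at 14.2 and 9.01 CPM.

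LAT1 and LAT3, carriers of large neutral amino acids, rose, and so did the taurine carrier. SLC7A5 (LAT1), on chromosome 16 from 87830023 to 87869507, had the highest level per length among amino acid carriers at 103 CPM per kb of exon with DMSO. It held 510, 484 and 475 CPM with DMSO and 780, 836 and 871 CPM with AZD4573, a log2 fold change of 0.86 ± 0.0537 (SE; adjusted p = 6.6e-09). With mitochondrial mRNAs as the scale, its log2 fold change was 0.12 and was no longer called. SLC3A2, the heavy chain that brings LAT1 to the membrane, stood at 159 and 197 CPM (log2 fold change 0.41, adjusted p = 4.5e-06), under the fold required. SLC43A1 (LAT3), a facilitated carrier with like substrates, held 11.0, 10.5 and 10.4 CPM with DMSO and 20.3, 23.2 and 22.6 CPM with AZD4573. The taurine transporter SLC6A6, on chromosome 3 from 14402576 to 14489349, held 38.0, 43.9 and 47.9 CPM with DMSO and 95.0, 99.4 and 98.3 CPM with AZD4573, a log2 fold change of 1.28 ± 0.0677 (SE; adjusted p = 1.5e-09).

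Of the carriers that exchange or import glutamine, alanine and serine, SLC1A5 (ASCT2) went from 161 ± 2 to 70.2 ± 2.68 CPM (SD, n = 3; log2 fold change -1.10, with 23.8% of its exon bases shared with genes on the other strand) and SLC1A4 (ASCT1) from 229 to 137 CPM. The cationic amino acid transporter SLC7A1 fell from 217 to 134 CPM (log2 fold change -0.59), just past the fold required, and this call ended with RLE factors (-0.58), with at least 10 counts in every library (-0.55) and without DMSO replicate 3 (-0.58) or AZD4573 replicate 3 (-0.56). SLC7A6, a partner of SLC3A2, fell from 71.4 to 39.6 CPM, although SLC7A6OS covers part of the 55.6% of its exon bases that other genes share. The lysosomal exporters SLC15A4 and SLC36A1 fell from 21.9 to 9.75 CPM and from 6.32 to 3.29 CPM.

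To show the sequence upstream of members that moved in opposite directions, the 150 bases before the annotated start are printed for both of the largest falls and both of the largest rises that reached 40 CPM in the higher group, shared under 20% of their exon bases and had an entry in the promoter table. They were read from the RefSeq promoters of GRCh38.p14, 5′ to 3′ on the strand of the gene, at chr12:46372774-46372923 (minus strand) for SLC38A2, chr21:34073428-34073577 (plus strand) for SLC5A3, chr16:87869508-87869657 (minus strand) for SLC7A5 and chr1:211579162-211579311 (minus strand) for SLC30A1. Capitals mark matches on either strand to 4 motifs. The GC box, bound by SP factors, was searched as GGGCGG. The E-box, bound by MYC and related factors, was searched as CACGTG. The CCAAT box was searched by the letters of its name, and the metal response element, bound by the zinc sensor MTF1, as TGCNCNC.
SLC38A2: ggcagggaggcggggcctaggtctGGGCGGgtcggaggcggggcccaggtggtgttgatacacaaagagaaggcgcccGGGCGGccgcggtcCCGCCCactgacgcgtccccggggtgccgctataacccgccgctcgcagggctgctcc
SLC5A3: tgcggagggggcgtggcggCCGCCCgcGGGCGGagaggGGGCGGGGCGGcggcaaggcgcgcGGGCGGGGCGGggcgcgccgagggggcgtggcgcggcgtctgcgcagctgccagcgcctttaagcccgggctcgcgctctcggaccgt
SLC7A5: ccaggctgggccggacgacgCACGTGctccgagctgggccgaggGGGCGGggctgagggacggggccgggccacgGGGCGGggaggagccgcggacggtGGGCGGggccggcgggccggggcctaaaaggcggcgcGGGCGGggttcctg
SLC30A1: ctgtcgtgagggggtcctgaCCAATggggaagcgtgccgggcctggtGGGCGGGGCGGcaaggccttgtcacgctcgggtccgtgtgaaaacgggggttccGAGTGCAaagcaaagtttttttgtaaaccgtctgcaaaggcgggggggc

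GC boxes stood in each of these windows, 4 of them in SLC7A5, where an E-box began 130 bases before the start. SLC30A1 held 1 match to the metal response element on the minus strand, beginning 49 bases before the start. Some GC boxes overlap each other, and the capitals then run together.

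Over the whole promoter entries (250 bases before to 50 after the start), 127 of the 152 members were in the table. GC boxes were in 73.2% of the members and in 44.6% of all 27305 promoters, and they were in 71.4% of the lower members, 64.3% of the higher and 76.6% of those not called. The E-box was in 12.6% of members and 7.43% of all promoters, CCAAT in 41.7% and 35.7%, TATAAA in 3.94% and 12%, and the cyclic AMP response element TGACGTCA in 3.94% and 1.98%. TGATGCAA, the letters of a C/EBP-ATF element, was in 0 members and in 0.923% of all promoters. The short and loose TGCNCNC was in 61.4% of members and 55.2% of all promoters, with 27 of 49 lower members, 14 of 14 higher members and 37 of 64 not called. It was 1 of 7 motifs searched, and no test was made. The GC content was 67.0% in the median member and 58.3% in the median promoter. All promoters were taken whatever the level of their gene in H9 cells. No share was taken over genes at 5 CPM or more with DMSO, so these differences may not be particular to carriers.

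Metal ion carriers held both importers and exporters of zinc. Of the SLC39 (ZIP) family, which bring zinc and other metals into the cytosol, 2 of 11 fell and 1 rose, and the rise, in SLC39A11 (log2 fold change 0.66), was lost with library size as the only scaling (0.56). SLC39A14, a carrier of zinc, iron and manganese, went from 82.5 ± 0.753 to 29.5 ± 2.72 CPM (SD, n = 3; log2 fold change -1.38), and SLC39A3 from 54.2 to 20.2 CPM. SLC39A6, the member with the highest level per length in the class (52.6 CPM per kb of exon with DMSO), held 195, 195 and 191 CPM with DMSO and 172 CPM in each AZD4573 library, a log2 fold change of -0.07 with an adjusted p of 0.11. With library size as the only scaling, its adjusted p was 0.00069, at a log2 fold change of -0.18.

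Among SLC30 (ZnT) carriers, which move zinc out of the cytosol, SLC30A1 of the plasma membrane held 44, 44.3 and 42.5 CPM with DMSO and 62.9, 77.7 and 75.6 CPM with AZD4573, a log2 fold change of 0.83 ± 0.0742 (SE; adjusted p = 2.4e-07). Its log2 fold change was 0.09 with mitochondrial mRNAs as the scale. SLC30A5 and SLC30A6, which pair to load zinc into the secretory pathway, fell from 49.1 to 29.8 and from 47.1 to 25.3 CPM (the former not called with at least 10 counts in every library, at -0.58), whereas SLC30A7 and SLC30A9 stood within 0.10 of 0 on the log2 scale. The copper importer SLC31A1 fell from 29.96 to 13.3 CPM and the magnesium carrier SLC41A1 from 12 to 4.38 CPM.

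Carriers of inorganic ions fell in 9 of 19 cases. The sodium-proton exchangers (SLC9A), which set the pH of the cytosol and of organelles, were split by member. SLC9A3 fell from 14.4 to 5.24 CPM, with 56.8% of its exon bases shared. SLC9A8, an exchanger of the Golgi, rose instead, with 15.7, 17.1 and 17.3 CPM with DMSO and 34.9, 35.9 and 34.0 CPM with AZD4573 (log2 fold change 1.17 ± 0.0589, SE; adjusted p = 9.6e-10). The other rise was in SLC24A1, a potassium-dependent sodium-calcium exchanger, from 10.1 to 22.2 CPM.

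The phosphate importer SLC20A1 had the highest level per length in this class (17.1 CPM per kb of exon) and held 88.8, 96.7 and 97.0 CPM with DMSO and 42.6, 45.5 and 42.8 CPM with AZD4573. Its paralogue SLC20A2 stood at 43.3 and 29.6 CPM (log2 fold change -0.45), under the fold required. SLC12A2 (NKCC1), which brings sodium, potassium and chloride into the cell, fell from 36.5 to 13.8 CPM, and the sulfate transporter SLC26A2 from 16.8 to 5.66 CPM. Of the bicarbonate carriers (SLC4), 0 of 4 were called, and their log2 fold changes ran from -0.44 in SLC4A11 to 0.57 in SLC4A7.

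The SLC35 family brings nucleotide sugars and the sulfate donor PAPS into the Golgi and endoplasmic reticulum, where they serve the glycosylation and sulfation of proteins and lipids. Of its 21 members, 9 fell and 2 rose. SLC35A1, the CMP-sialic acid transporter, held 13.1, 13.9 and 13.7 CPM with DMSO and 2.55, 2.94 and 2.41 CPM with AZD4573, a log2 fold change of -2.26 ± 0.0985 (SE), although 55.5% of its exon bases are shared with an overlapping gene of the same strand (ENSG00000213204). SLC35D1, which carries UDP-glucuronic acid and UDP-N-acetylgalactosamine, went from 37.2 ± 0.372 to 7.28 ± 0.595 CPM (SD, n = 3; log2 fold change -2.25). The GDP-fucose transporter SLC35C1 fell from 21.7 to 5.83 CPM, and SLC35B4, of UDP-xylose and UDP-N-acetylglucosamine, from 69.1 to 38.2 CPM.

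Members of less certain substrate fell as well, SLC35F6 from 16.7 to 3.82 CPM and SLC35F2 from 25.9 to 6.77 CPM. The carriers of UDP-galactose (SLC35A2) and of UDP-N-acetylglucosamine (SLC35A3) were not called, at log2 fold changes of -0.05 and -0.33. SLC35B2, the PAPS transporter and the member with the highest level per length in this class (20.6 CPM per kb of exon), held 46.7, 44.7 and 44.1 CPM with DMSO and 68.5, 74.2 and 73.6 CPM with AZD4573, a log2 fold change of 0.78 ± 0.0544 (SE; adjusted p = 2.1e-08). With mitochondrial mRNAs as the scale it was 0.04. SLC35B3, the other PAPS carrier, stood at 11.5 and 11.3 CPM.

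Sugar and carboxylate carriers, without the members left out by the rule, were of low level. SLC5A3, which accumulates myo-inositol, held 44, 44.5 and 48.0 CPM with DMSO and 14.8, 11.6 and 12.4 CPM with AZD4573, a log2 fold change of -1.72 ± 0.0772 (SE; adjusted p = 3.8e-10). The glucose transporter family member SLC2A6 fell from 12.4 to 3.04 CPM, and the lysosomal sialic acid exporter SLC17A5 (sialin) from 6.68 to 1.96 CPM. SLC2A11 rose from 8.35 to 19.5 CPM, with 24.0% of its exon bases shared. Of the SLC37 sugar-phosphate carriers of the endoplasmic reticulum, 0 of 3 were called, with SLC37A4, the glucose-6-phosphate transporter, at 15 and 20.3 CPM. SLC50A1, the sugar carrier with the highest level per length (6.32 CPM per kb of exon), stood at 14.8 and 17.5 CPM (log2 fold change 0.35), which turned to -0.39 with mitochondrial mRNAs as the scale.

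Among carriers of lipids, choline and organic ions, SLC27A4, a fatty acid transport protein with acyl-CoA synthetase activity, had the highest level per length (19.8 CPM per kb of exon). It held 64.8, 64.0 and 62.7 CPM with DMSO and 28.1, 25 and 22.2 CPM with AZD4573, a log2 fold change of -1.24 ± 0.0691 (SE). SLC27A2 of the same family fell from 7.74 to 3.66 CPM, SLC27A5 rose from 10.2 to 14.9 CPM, and SLC27A3 stood at 7.31 and 7.59 CPM, so that the 4 members differed in direction. SLC10A3 fell from 32.7 to 8.41 CPM and the carnitine importer SLC22A5 from 9.73 to 4.57 CPM. The choline transporter SLC44A1 rose from 15.9 to 22.8 CPM, and its relative SLC44A2 stood at 16.7 and 21.5 CPM. Both rises in this class (log2 fold changes of 0.63 and 0.65) were lost with library size as the only scaling, and that of SLC44A1 also without a filter on low counts or without DMSO replicate 3 (0.52).

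Mitochondrial carriers (SLC25) link the matrix to the cytosol, and the members with the highest levels were not called. SLC25A6 and SLC25A5, ADP/ATP carriers, had the highest levels per length of all members, at 316 and 227 CPM per kb of exon with DMSO. SLC25A6 held 515, 476 and 479 CPM with DMSO and 486, 500 and 497 CPM with AZD4573, with overlapping groups, and its log2 fold change of 0.12 had an adjusted p of 0.037, or 0.063 under the replicate block, and turned to -0.62 with mitochondrial mRNAs as the scale. SLC25A5 stood at 353 and 298 CPM, a log2 fold change of -0.14, and 23 members, this one included, have annotated pseudogenes that can take part of their reads. The phosphate carrier SLC25A3 held 213 and 282 CPM in the mean (log2 fold change 0.51), under the fold required.

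By substrate, 5 of 14 carriers of nucleotides and cofactors were lower and 1 higher, 3 of 13 carriers of amino acids and carboxylates were lower and 1 higher, and 0 of 3 carriers of phosphate and iron were called. Of the first group, SLC25A33, a pyrimidine nucleotide carrier, fell from 61.4 to 25.6 CPM. SLC25A32, the carrier of folate or FAD, fell from 63.1 to 23.3 CPM but shares 80.8% of its exon bases with other genes. SLC25A42, a carrier of coenzyme A, rose from 7.09 ± 0.809 to 15 ± 1.29 CPM (SD, n = 3; log2 fold change 1.19). Among amino acid carriers, SLC25A12 (aspartate-glutamate exchange) fell from 18.1 to 9.34 CPM, SLC25A38 (glycine, for heme synthesis) from 79.8 to 45.5 CPM and SLC25A22 (glutamate) from 48.5 to 29.4 CPM, a call that ended with at least 10 counts in every library (-0.58) or without AZD4573 replicate 3 (-0.56). SLC25A44, of branched-chain amino acids, rose from 127 to 182 CPM (log2 fold change 0.63), a call lost with library size as the only scaling (0.52) and without a filter on low counts (0.58). The citrate carrier SLC25A1 stood at 36.8 and 45.3 CPM. SLC25A35, of unassigned substrate, rose from 7.82 to 14.2 CPM, with 28.7% of its exon bases shared with RANGRF.

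The largest rise among the members, outside these classes, was in SLC14A1, the urea transporter of red blood cells. It held 6.03, 6.17 and 6.12 CPM with DMSO and 16.4, 16.7 and 16 CPM with AZD4573, a log2 fold change of 1.53 ± 0.0727 (SE; adjusted p = 6.1e-10). SLC66A2 stood at 68.5 and 88.1 CPM (log2 fold change 0.47), which turned to -0.27 with mitochondrial mRNAs as the scale.

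The log2 fold change, taken with its sign, had little linear or rank correlation with the span of the gene, although the shares called differed between ranges of span. Over the 152 members, Pearson's r of log2 fold change with log10 gene span was 0.033 and Spearman's rho 0.016. Over the 10495 genes at 5 CPM or more with DMSO and a position r was -0.0042 and rho -0.024, and over all 17638 genes tested with a position r was -0.11 and rho -0.10. These are correlations across genes, which share the 6 libraries and are not independent replicates. Of 27 members that span under 10 kb 7 were lower and 3 higher, of 41 at 10 to 30 kb 19 and 2, of 63 at 30 to 100 kb 28 and 9, and of 21 at 100 kb or more 5 and 2. In the order of these spans, 25.9%, 46.3%, 44.4% and 23.8% of members were lower, beside 28.2%, 30.3%, 32.7% and 25.1% of genes at 5 CPM or more with DMSO. The shares called higher were 11.1%, 4.88%, 14.3% and 9.52% of members and 13.9%, 9.73%, 8.49% and 12.1% of those genes.

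Genes that work beside these carriers were described from lists that were written by function. Of 46 tested carriers that belong to SLC families under other symbols, such as mitochondrial pyruvate carriers and sideroflexins, 13 were lower and 4 higher (median -0.16), or 28.3% and 8.70%, close to the 29.8% and 10.5% of genes at 5 CPM or more with DMSO. TMEM165, a Golgi ion transporter, showed the largest fall, from 70.7 to 20.6 CPM, and SLC35E2A the largest rise, from 1.54 to 4.12 CPM. Of 19 partner proteins and chaperones of carriers, 6 were lower and 1 higher (median -0.23), or 31.6% and 5.26%. The largest fall among them was in ATP1B1, the beta subunit of the sodium pump, from 1.34 to 0.252 CPM, and the rise was in WNK4, a kinase that regulates chloride cotransporters, from 4.41 to 22.2 CPM.

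Transporters driven by ATP had few falls under TMM scaling, and their share of rises was near that of all genes tested. Of 23 ABC transporters 2 were lower and 6 higher (median 0.15), or 8.70% and 26.1%. Of 29 P-type ATPases 2 were lower and 7 higher (median 0.06), or 6.90% and 24.1%. With mitochondrial mRNAs as the scale these counts turned to 11 lower and 2 higher, and to 17 lower and 3 higher. Both lists include genes well under 5 CPM with DMSO, so that their shares stand beside the 23.7% lower and 22.7% higher of all genes tested. At 5 CPM or more with DMSO, the falls were ABCC10, ABCC4, ATP13A2 and ATP2B1, and the rises ABCA7, ABCA2, ATP8A1 and ATP2A1. ABCC2 (0.105 and 1.69 CPM) and ATP2B2 (0.0698 and 1.06 CPM) were the largest rises, and ABCC10 (44.5 and 21.5 CPM) and ATP13A2 (51.6 and 27.8 CPM), a lysosomal polyamine transporter, the largest falls.

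Amino acids that carriers bring in are sensed by mTORC1 through Rag GTPases and the GATOR complexes. Of 34 tested genes of this machinery, 15 were lower and 1 higher (median -0.24), or 44.1% and 2.94%, beside 23.7% and 22.7% of all genes tested and 29.8% and 10.5% of those at 5 CPM or more with DMSO. DEPDC5, a GATOR1 subunit, held 22.1, 23.1 and 24.1 CPM with DMSO and 9.19, 7.99 and 7.65 CPM with AZD4573, and FLCN, a regulator of the Rag GTPases, went from 21.7 to 7.82 CPM. RRAGC, a Rag GTPase, fell from 35.5 to 14.2 CPM and RPTOR, the mTORC1 scaffold, from 118 to 70.3 CPM. The rise was in FNIP1, a partner of FLCN, from 20.9 to 34.1 CPM, while FNIP2, the other partner, fell from 27.0 to 9.93 CPM. Of 19 tested genes for zinc, copper and iron handling, 2 were lower and 1 higher (median 0.08), or 10.5% and 5.26%. The rise was in CCS, the copper chaperone of superoxide dismutase, from 16.5 to 27.9 CPM. TFRC fell from 665 to 332 CPM (log2 fold change -0.90). HMOX1, at 0.393 and 0.187 CPM, was the largest fall but was lost under 7 alternatives, among them each library left out but DMSO replicate 1 and AZD4573 replicate 3.

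**Figure D5:**
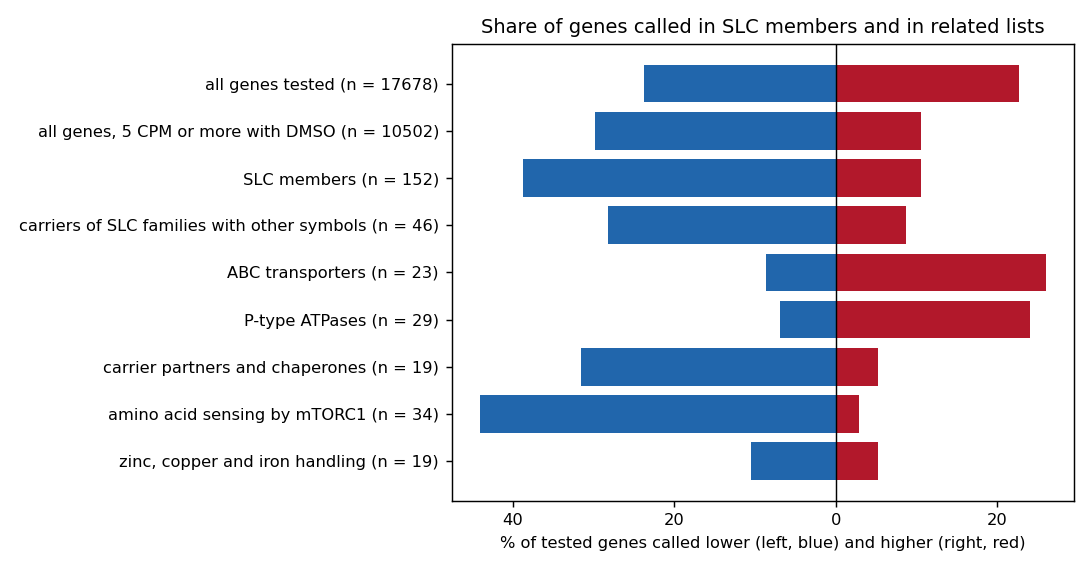
Percentage of tested genes called lower (left) and higher (right) for all genes, for genes at 5 CPM or more with DMSO, for the SLC members and for related gene lists. The SLC members stand at 38.8% lower and 10.5% higher, beside 29.8% and 10.5% of genes of like DMSO level.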

How the data were processed

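Per the labels, poly(A) RNA of H9 cells was sequenced, whereas the study's methods describe rRNA depletion. The authors used FastQC 0.11.8 and cutadapt 2.3 before alignment by STAR 2.7.8a to GRCh38, and deposited expected counts per gene from RSEM 1.3.3 at default settings, which ignore strand. The deposited counts are whole numbers without normalization. Here, in R 4.3.3, edgeR 4.0.16 kept 17678 of 61541 genes (minimum count 10), applied TMM and tested them by quasi-likelihood, with p-values adjusted over them by Benjamini-Hochberg and no term for the replicate number. Calls needed an adjusted p under 0.05 and a fold of at least 1.5. On simulated data with this design, 185 of 200 changed genes and 2 of 17478 unchanged ones were called (17678 genes). The simulation gave every gene the same dispersion and moved equal numbers up and down, at folds of 2 or 4. It thus cannot speak to calls near a fold of 1.5 or to scaling where most transcripts shift. CPM used library totals, and errors of CPM are SD. CPM per kb used the union of exons of GENCODE release 44, which also gave positions and shared exon bases.

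The members and lists were chosen with earlier results of these data known. Genes were named by rule: the 10 largest falls and rises among members with an adjusted p under 0.05 and groups that do not overlap, the member of highest CPM per kb in each class, the nearest genes on both sides of 5 CPM, up to 5 SLC genes that passed 5 CPM only with AZD4573, and the largest fall and rise of each list. Some genes that met this rule are not reported here. The others named, as examples of their class, family or list, and the printed promoters were chosen after their values were seen. Alternatives were RLE factors, library size, mitochondrial mRNA scaling, no or a stricter filter, DESeq2 1.42.0, a replicate block, a fold of 2, each library left out, and other rules for membership. Within groups, the counts of each pair of libraries differed beyond counting noise, so that none was a copy of another.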

Additional observations from a re-analysis of the deposited data

How the results depend on the processing

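The members' median stayed below 0, and their falls outnumbered their rises, under all alternatives run. Their share of falls beside that of genes at 5 CPM or more with DMSO was not recomputed under these alternatives. Scaling to mitochondrial mRNAs gave 111 members lower and 2 higher, with a median log2 fold change of -1.06, and 9433 genes lower and 1769 higher in all. A fold of 2 gave 41 members lower and 7 higher (all genes 2450 and 2643), and members at 1 CPM or more with DMSO gave 67 lower and 25 higher. The median was -0.43 with library size only, -0.37 without a filter, -0.29 with at least 10 counts in every library, -0.30 with members by the mean of all 6 libraries or at 1 CPM or more, and -0.37 with the 5 symbols included. With each library left out, 57 to 63 members were lower, 15 to 17 higher, and the median ran from -0.36 to -0.34. Over all genes, 4142 to 4337 were then lower and 3872 to 4119 higher. Same-numbered libraries did not deviate together (correlations of -0.00880, 0.124 and -0.0910), and the replicate block gave 59 members lower and 16 higher. The block ended the call of HMOX1 (log2 fold change -0.96), and it moved SLC25A6, never called, past an adjusted p of 0.05 (log2 fold change 0.12).

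A class median minus the members' median moved most with the membership rule, except for the vitamin and the unassigned classes, which moved most with a library left out. By the mean of 6 libraries it was -0.081 for amino acids, -0.10 for sugars, 0.19 for metals, -0.078 for nucleotide sugars and 0.25 for mitochondrial carriers. At 1 CPM it was 0.073 for amino acids, 0.61 for lipids, 0.11 for metals, -0.078 for nucleotide sugars and 0.25 for mitochondrial carriers, and at 10 CPM -0.21 for amino acids, -0.061 for sugars, 0.45 for lipids, -0.63 for inorganic ions, 0.20 for mitochondrial carriers and 0.72 for unassigned genes. With the 5 symbols included it was -0.00697 for amino acids, -0.37 for sugars, 0.44 for lipids, 0.26 for metals, -0.00405 for nucleotide sugars, 0.32 for mitochondrial carriers and 0.84 for unassigned genes. With members that share under 20% of exon bases, an alternative added after seeing the data, it was 0.12 for amino acids, -0.26 for sugars, 0.15 for metals and 0.21 for mitochondrial carriers. With each library left out, it ran from -0.051 to 0.0064 for amino acids, -0.18 to -0.091 for sugars, -0.79 to -0.71 for vitamins, 0.37 to 0.44 for lipids, 0.20 to 0.25 for metals, -0.23 to -0.093 for inorganic ions, -0.057 to -0.021 for nucleotide sugars, 0.26 to 0.31 for mitochondrial carriers and 0.75 to 0.86 for unassigned genes. For the amino acid class the sign of this difference thus changed between the membership rules.

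Of the 47 genes named by rule, 43 kept their direction and side of the threshold in every alternative but the mitochondrial scaling, and 35 in that too. Mitochondrial scaling turned SLC50A1 (-0.39), SLC25A6 (-0.62), SLC66A2 (-0.27) and SLC25A45 (-0.27). SLC38A7, at -0.01, turned to 0.025 with the stricter filter and ran from -0.13 to 0.065 with each library left out, being above 0 without DMSO replicate 2 (0.065), AZD4573 replicate 2 (0.018) or AZD4573 replicate 3 (0.061). The causes were not tested.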
